A study of Nothobranchius furzeri with 228 samples.

Results

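Of the 114 male turquoise killifish (*Nothobranchius furzeri*, strain MZM-0410) whose fins were clipped at 10 and 20 weeks of age, 9 were dead within 4 weeks of the second clip. They were found from the age at death in the labels, 168 days or less, with the second clip taken as day 140. They died at 143 to 167 days of age, 3 to 27 days after week 20. They were set against 19 fish that died at 169 to 220 days by rule (176 to 218 days in fact), 36 to 78 days after week 20. A further 85 fish died 81 to 381 days after it, and 1 fish had no age at death in its labels. All fish carried the label normal aging, and no treatment or genotype separated the groups. RNA-seq of the fins gave 228 libraries, of which 9 are the 20-week libraries of the fish near death. Age at death was the only label that separated them from the other fish, and the labels do not give the cause of death.

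The turquoise killifish lives in seasonal ponds and is among the shortest-lived vertebrates kept in the laboratory. Its fin is made of epidermis, dermis with collagen and bony rays, vessels, nerves, pigment cells and resident leukocytes, and it can be sampled without killing the animal. A systemic illness can reach the fin through the blood: glucocorticoid hormones switch on genes such as FKBP5 and TSC22D3 in many vertebrate tissues, interferons switch on antigen presentation, and fasting or wasting slows cell division and matrix production. Genes below carry the name of their human orthologue, which could be given to 27.7% of the genes tested, and the Nfu_g identifier where it helps to tell copies apart.

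The 9 fish near death were FC77 (dead 3 days after week 20), FC34 (5 days), FC9 (6 days), FC104 (11 days), FC82 (18 days), FC52 (22 days), FC105 (25 days), FC56 and FC74 (27 days each). The range of fish number (1-50, 51-84, 85 and above) was a covariate of each fit, with 2, 5 and 2 fish near death and 3, 13 and 3 of the 19 later deaths. The 20-week totals were 17118309 to 28472877 counts near death and 17709931 to 29034473 in the later deaths. Epidermal markers were high in all 9 libraries: CDH1, the epithelial cadherin, lay between 219 and 429 CPM (counts scaled to library size), and TP63, a regulator of basal keratinocytes, between 189 and 343 CPM. The skeletal muscle gene MYL1 lay between 0.0377 and 4.02 CPM. The 2 samples of a fish usually resemble each other more than they resemble other fish, and for 8 of the 9 fish they did. The samples labelled fish FC104 resembled each other with a correlation of 0.373, but those of fish FC96, which lived to 425 days, with 0.832 and 0.805. Fish FC103 among the later deaths showed the same pattern with fish FC95. In all, the samples of 10 of the 114 fish did not match, 1 of them near death and 1 among the later deaths. The others were fish FC18, FC95, FC96, FC97, FC98, FC100 and FC101 of the 85 longest-lived, and FC102, which had no age at death. Fish FC97 and FC101 matched each other in the same crossed way, at 0.883 and 0.862. Fish FC98, FC100 and FC102 matched one another in a ring, at 0.824 to 0.849. The labelled pairs of these fish lay between -0.395 and 0.136. For fish FC18 the best match was only 0.411. The samples labelled FC95 to FC104, all but those of FC99, thus paired across labels. The data do not show at which age a label is wrong. Results are given with and without the unmatched fish where they moved.

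No gene passed the main test of the fish near death against the fish that died 29 to 80 days after week 20. Of 17247 genes tested in the 20-week libraries, 0 (0%) passed an adjusted p of 0.05 by the edgeR quasi-likelihood test with Benjamini-Hochberg adjustment, the lowest adjusted p being 0.575. At an unadjusted p under 0.05 the test took 866 genes (5.02%), 482 higher (2.79%) and 384 lower (2.23%) near death, about the share that a p of 0.05 takes by its definition. DESeq2 called 1 gene (0.00580%) and took 1056 (6.12%) at an unadjusted p under 0.05. In no gene were the 2 groups without overlap, in either direction. The 95% intervals say how large a shared difference could be: for 88.7% of genes the interval lay within a 2-fold difference either way, and for 64.3% within 1.5-fold. Among the 12268 genes with a mean of at least 5 CPM these shares were 95% and 77.8%. A p that misses the threshold does not show that levels were alike.

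**Figure D1:**
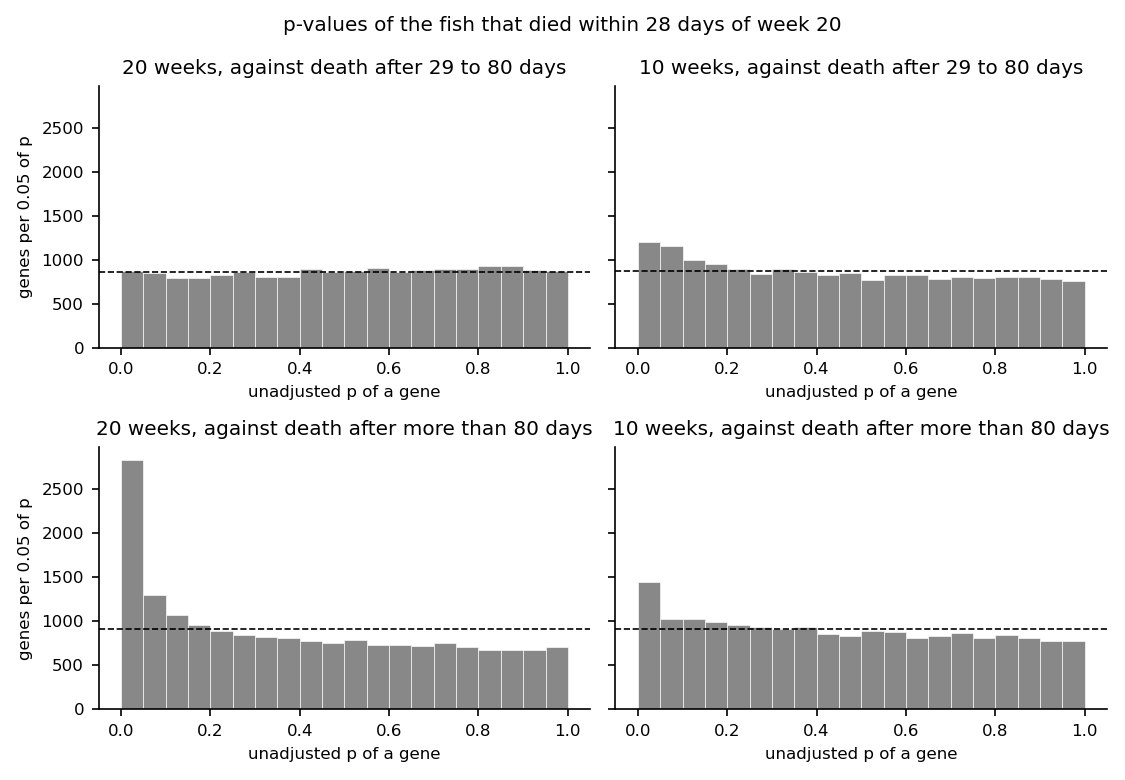
Number of genes (vertical axis) in each 0.05 step of unadjusted p (horizontal axis) for the 9 fish near death, at 20 weeks (left) and 10 weeks (right), against the 19 fish that died after 29 to 80 days (top) and the 85 that died later (bottom); the dashed line is the number expected if p-values were spread evenly. Against the 19 fish the 20-week histogram is flat, with 866 genes in the first step, and against the 85 fish the first step holds 2833 genes.

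The genes with the lowest p are described here although none passed. PLEC, which encodes the cytolinker plectin that ties keratin filaments to the cell's attachment plaques, had 527, 408, 517, 332, 599, 691, 399, 516 and 417 CPM in fish FC77, FC34, FC9, FC104, FC82, FC52, FC105, FC56 and FC74. In the later deaths PLEC had 210 CPM at the lowest, 396 at the median and 557 at the highest, so that the groups overlapped. Its log2 difference was 0.41 ± 0.09 (SE, edgeR adjusted p = 0.575), with the same sign in each range. The unnamed gene Nfu_g_1_007849 had 6.67 to 13.9 CPM near death (median 9.46) against 3.6 to 10.2 (median 6.73), a log2 difference of 0.67 ± 0.15 (edgeR adjusted p = 0.575). Another unnamed gene, Nfu_g_1_017280, had 9.73 to 22.5 CPM near death (median 17.5) against 7.08 to 19.1 (median 10.4). Its log2 difference of 0.51 ± 0.14 at 20 weeks stood beside 0.49 ± 0.14 at 10 weeks, so that these fish had it higher by estimate at both ages, while Nfu_g_1_007849 was at -0.31 ± 0.25 and PLEC at -0.07 ± 0.12 at 10 weeks. Nfu_g_1_005004 and Nfu_g_1_021153 completed the 5 higher genes, with 0.35 ± 0.09 and 0.69 ± 0.19 (edgeR adjusted p = 0.966 for both).

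Lower values were led by Nfu_g_1_009401, which has no name and is the 1 gene that DESeq2 called. Of 25 alternative fits it passed in 3: DESeq2, a fit of all 20-week libraries in 3 groups, and the comparison with all fish that died later. It had 38.9, 24, 18.6, 18.7, 28.7, 31.7, 24.1, 27.5 and 25.6 CPM in the 9 fish, in the same order, against 18.4 to 125 CPM (median 45.8) in the later deaths. The 9 values lay low and close together, inside the lower end of the other group. Its log2 difference was -1.06 ± 0.23 with an adjusted p of 0.575 in edgeR and 0.0365 in DESeq2, and at 10 weeks it was -0.06 ± 0.19. IRX5, a homeobox factor of limb and skin patterning, had 17.4 to 28.2 CPM near death (median 21.4) against 21.9 to 56.5 (median 27.9), a log2 difference of -0.45 ± 0.11 (edgeR adjusted p = 0.966). Nfu_g_1_004635 had 4.49 to 11 CPM (median 7.09) against 6.51 to 12.8 (median 9.7), and Nfu_g_1_014837 had 3.74 to 8.84 (median 5.76) against 6.03 to 15.4 (median 8.73). In the last of these, fish FC9 and FC105 had 8.41 and 8.84 CPM and the other 7 fish 3.74 to 6.22.

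Immediate early genes, which are switched on quickly by a stimulus to the cell, were among those with the lowest p. NR4A1 (Nfu_g_1_021198), an orphan nuclear receptor of this class, had 0.622 to 3.88 CPM near death (median 2.04) and 1.17 to 20.3 CPM (median 5.42) in the later deaths. Its log2 difference was -1.61 ± 0.39 (edgeR adjusted p = 0.966). FOSB, a subunit of the AP-1 factor, had 1.95 to 20.5 CPM (median 4.85) against 2.24 to 38.4 (median 22.7), and its log2 difference was -1.32 ± 0.42 (edgeR adjusted p = 0.966). FOS, another AP-1 subunit, gave -1.4 ± 0.49. The fish that died after more than 80 days had medians of 3.19, 7.95 and 6.02 CPM for NR4A1, FOSB and FOS, over ranges that differ in level. In fish 51-84 alone the NR4A1 (Nfu_g_1_021198) medians near death, in the later deaths and in the longer-lived fish were 2.06, 5.41 and 5.97 CPM, and those of FOSB were 8.54, 22.7 and 13.1 CPM. Another copy of NR4A1, Nfu_g_1_001848, was near the floor. In fish 1-50, 51-84 and 85 and above its medians near death were 0.12, 0.52 and 0.56 CPM. Those of the later deaths were 0.63, 0.92 and 0.39 CPM, so that the order was reversed in fish 85 and above. Of the list of 25 immediate early and inflammatory genes, 3 were lower and 0 higher at an unadjusted p under 0.05, beside 2.23% and 2.79% of all genes.

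**Figure D2:**
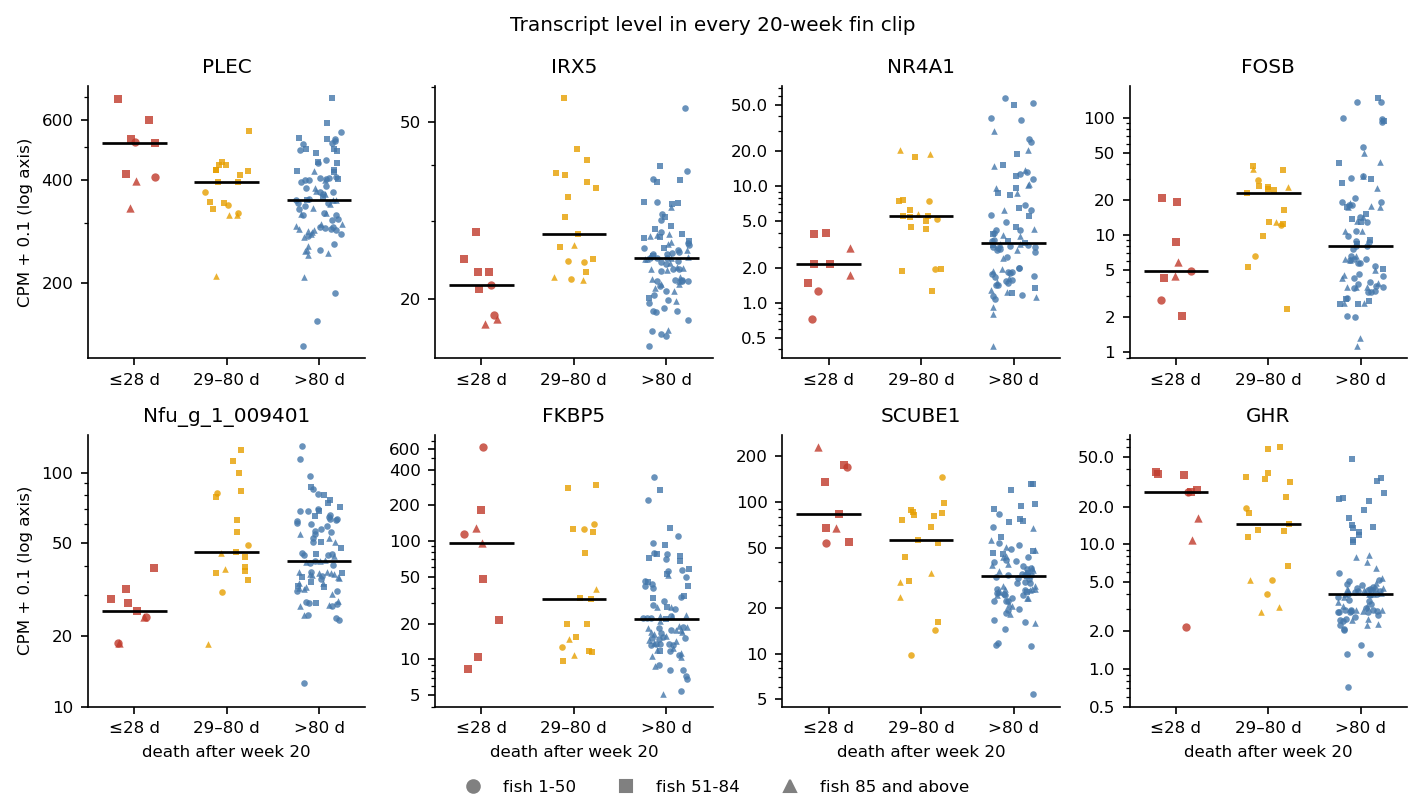
Level of 8 genes in every 20-week library, as CPM plus 0.1 on a log axis, by time from week 20 to death, with 1 symbol per range of fish number and the group median as a line. The 9 values of Nfu_g_1_009401 near death lie between 18.6 and 38.9 CPM, while those of FKBP5 run from 8.23 to 621 CPM.

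For large machineries of the cell the group averages lay close together. All 26 proteasome genes, which build the particle that degrades tagged proteins, had intervals within 1.5-fold of no difference, with a median log2 difference of 0.04 and 0 at an unadjusted p under 0.05. All 58 cytosolic ribosomal protein genes had such intervals too, with a median of -0.03 and 0 at that p. Of 25 genes of the respiratory chain and ATP synthase 24 did, with a median of 0.01. For all genes tested the median was -0.004. Single fish lay further apart than these group averages. Set against the fish of the same range that were not near death, the median proteasome gene was at 0.65 in fish FC82. It was at -0.50 in the library labelled fish FC104, on the log2 scale. Ribosome biogenesis, the assembly line of ribosomes in the nucleolus, had 3 of 52 genes higher, 0 lower and a median of 0.11. Its member with the lowest p was HEATR1, a factor of ribosomal RNA transcription, at 0.36 ± 0.11 (edgeR adjusted p = 0.966).

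The remaining lists are given by their members past an unadjusted p of 0.05, beside the 2.79% of all genes that were higher and the 2.23% that were lower at that p. Genes of the glucocorticoid and fasting response had 5 higher and 1 lower of 38, above the first share, with a median of 0.24. That median depended on the range: it was -0.07 in fish 51-84 alone, which hold 5 of the 9 fish and 13 of the 19, and 0.57 with that range left out. FOXO1, a factor that insulin keeps out of the nucleus, had a log2 difference of 0.69 ± 0.22 and IRS2 (Nfu_g_1_008662), an adaptor of the insulin receptor, 1.23 ± 0.41, both with an edgeR adjusted p of 0.966. Vessel markers had 3 higher and 1 lower of 16, also above the share of all genes, led by the endothelial phosphatase gene PTPRB (Nfu_g_1_011693) at 1.05 ± 0.32. Collagens and extracellular matrix had 3 higher and 2 lower of 41, with LTBP1, a binder of latent TGF-beta, at 0.97 ± 0.29. Leukocyte markers and the glycolysis and hypoxia list had 1 higher each, of 23 and 21. The lists not yet named had 0 in either direction: heat shock, ER chaperones, cell cycle, plasma proteins, interferon, circadian clock, epidermis, skeletal muscle, erythroid, nerve and glia, pigment cells, amino acid response and lysosome, with medians between -0.15 and 0.18. In whole fins, fewer cells of a type and less RNA per cell cannot be told apart.

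The fish near death were unlike each other. The mean level of each list was compared on the log2 scale with its mean over the fish of the same range that were not near death. For the glucocorticoid and fasting list it was 1.23 above them in fish FC34, 0.95 in the library labelled fish FC104, 0.80 in fish FC105, 0.57 in fish FC56 and 0.48 in fish FC52. It was 0.03 in fish FC9, -0.13 in fish FC77, -0.30 in fish FC74 and -0.41 in fish FC82. The later deaths ran from -0.71 to 0.93, and at 10 weeks the 9 fish lay between -0.18 and 0.43. Days to death did not order these values: fish FC77, which had 3 days left, lay below fish FC56, which had 27.

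FKBP5, a chaperone of the glucocorticoid receptor that the receptor itself induces, showed the spread most plainly and was chosen after its values were seen. It had 621 CPM in fish FC34, 183 in fish FC56, 128 in the library labelled fish FC104, 115 in fish FC9 and 95.9 in fish FC105. Fish FC52 had 47.8 CPM, fish FC82 21.6, fish FC77 10.4 and fish FC74 8.23. The later deaths had 9.66 to 296 CPM (median 32.4) and the longer-lived fish 4.98 to 348 CPM (median 21.9). Levels also differed by range. In fish 51-84 the medians near death, in the later deaths and in the longer-lived fish were 21.6, 32.4 and 55.4 CPM. In fish 1-50, with FC9 and FC34 near death, they were 368, 127 and 22.2 CPM. In fish 85 and above, with FC104 and FC105 near death, they were 112, 14.7 and 16.8 CPM. High values were thus found in some fish of every group, and the log2 difference from the later deaths was 0.70 ± 0.75, which did not pass.

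Fish FC74 stood apart in other lists. Its cell cycle list was 2.03 above its range at 20 weeks and its interferon and antigen presentation list 1.65, while the other 8 fish lay between -0.83 and 0.37 and between -0.59 and 0.32. At 10 weeks the interferon list of fish FC74 was at 2.02, against -0.60 to 0.36 in the other 8. Its cell cycle list was at 1.81 then, but fish FC82 and FC77 were raised too, at 1.13 and 0.59. B2M (Nfu_g_1_004499), the light chain of class I antigen presenting molecules, had 1080 CPM in fish FC74 at 20 weeks against 133 to 432 in the other 8, and 1540 CPM at 10 weeks against 159 to 291. Among the later deaths fish FC58 was alike, at 2.02 and 1.4, and the interferon list of fish FC40 was at 1.81. Without fish FC74, the median log2 difference of the cell cycle list from the later deaths moved from 0.07 to -0.32 and that of the interferon list from 0.18 to -0.19.

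**Figure D3:**
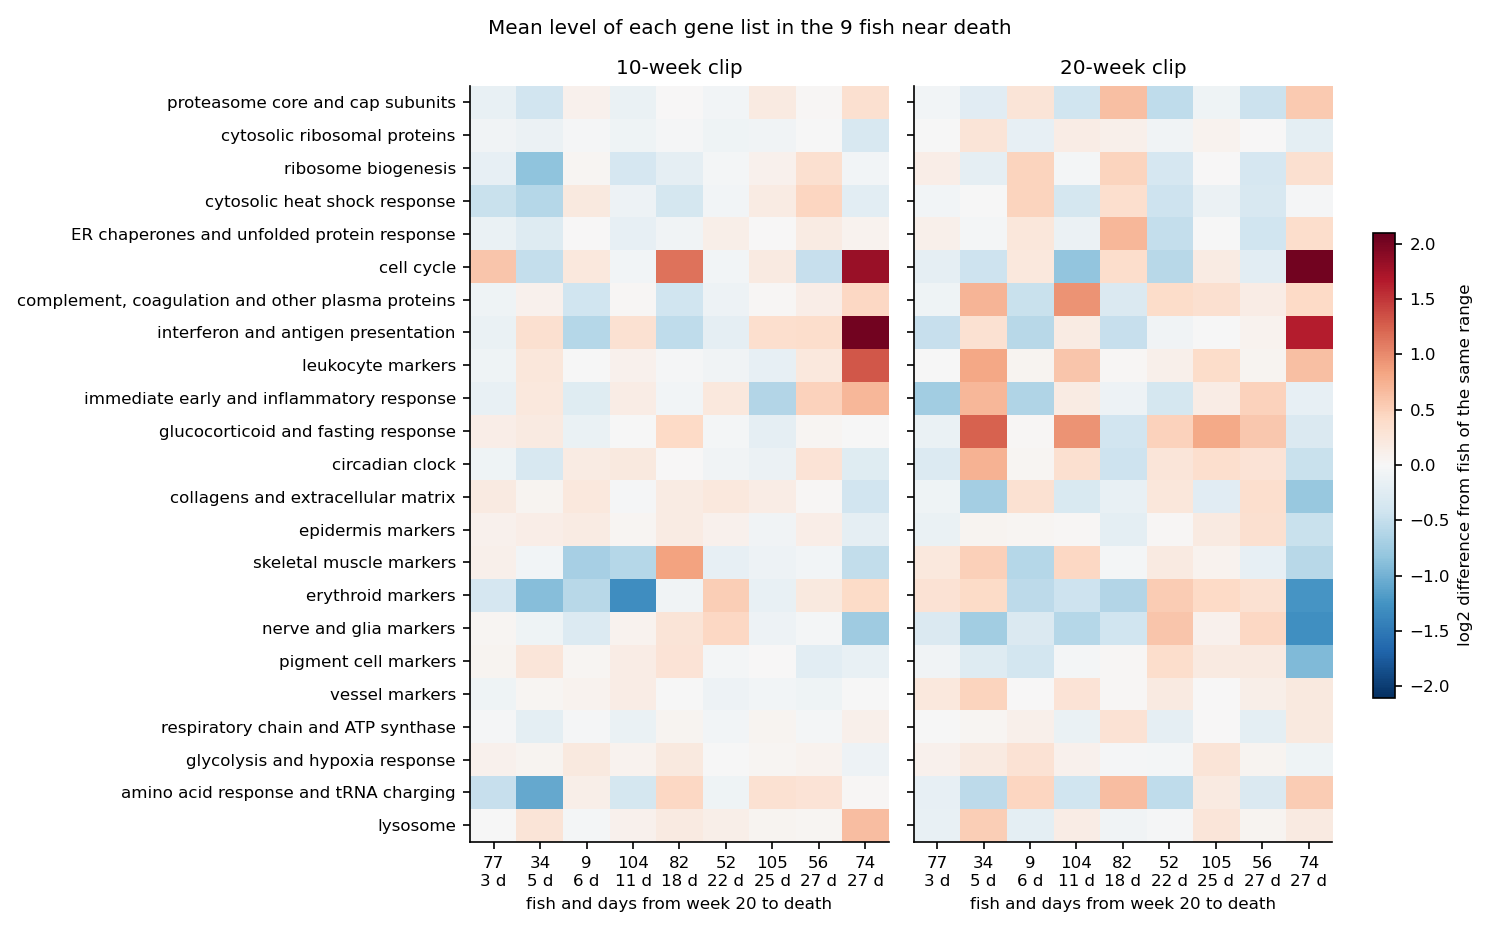
Mean log2 difference of each of 23 gene lists (rows) from the fish of the same range that were not near death, for the 9 fish near death (columns, ordered by days from week 20 to death), at 10 weeks (left) and 20 weeks (right); red is above and blue below. The glucocorticoid row at 20 weeks is deepest red in fish FC34, the library labelled fish FC104 and fish FC105 (1.23, 0.95 and 0.80). It is paler in fish FC56 and FC52, and fish FC74 is red for cell cycle and interferon at both ages.

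How far whole libraries lay from the rest was not shown to differ between the groups. The root mean square distance over genes from the centre of the range, the mean of its other libraries from fish not near death, was 0.611 ± 0.123 on the log2 scale (SD, n = 9) near death and 0.579 ± 0.159 (SD, n = 19) in the later deaths. The difference of 0.032 gave a 2-sided exact permutation p of 0.531 over 856800 arrangements within ranges. As that centre leaves out the fish near death, the groups were not measured in quite the same way. With the centre taken over all other libraries of the range for both groups, an alternative chosen after seeing the data, the difference was 0.032 and the exact permutation p 0.521. Genes over 3 SD and 2-fold from the centre numbered 467 in fish FC34, 450 in the library labelled fish FC104, 423 in fish FC74, 157 in fish FC52, 118 in fish FC9 and 116 in fish FC105. Fish FC82 had 37 such genes, fish FC77 had 32 and fish FC56 had 26. The later deaths had 3 to 1561 (median 58), and the exact permutation p for the counts on a log scale was 0.399, and 0.404 with the centre over all other libraries.

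Few of these genes were shared. Of 17247 genes, 484 were above the centre in 1 of the 9 fish, 48 in 2 and 12 in 3 or more. Below it were 899 in 1 fish, 123 in 2 and 21 in 3 or more. No gene was above or below in 5 or more fish. The 1 gene above in 4 fish was the unnamed Nfu_g_1_014318, in fish FC9, FC74, FC77 and FC82. The 1 gene below in 4 was Nfu_g_1_004379, in fish FC34, FC74, FC104 and FC105. Such sharing among the later deaths is not given here. Named ones above in fish FC34, FC104 and FC105 were FKBP5, DDIT4, an inhibitor of the growth kinase mTORC1, MKNK2, a kinase of translation initiation, STAT3, the factor that carries interleukin-6 signals, SLC35E4, a predicted solute carrier, SEC14L1, and TSC22D3 (Nfu_g_1_004440), a glucocorticoid-induced leucine zipper protein. ROBO1, a guidance receptor, PCDH17, a cadherin, MARCKS, a protein that binds actin and the membrane, KLF11, a zinc finger factor, PRSS35 and WFDC1 were below in the same fish. Some later deaths reached high levels too. Over all ranges, 6 later deaths lay above the 3rd highest fish near death for TSC22D3 (Nfu_g_1_004440), 4 for DDIT4 and 4 for SLC35E4. There were 3 each for FKBP5 and SEC14L1, 2 for MKNK2 and 1 for STAT3. The named genes were singled out after their values were seen, and the 2 samples labelled fish FC104 are those in doubt.

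**Figure D4:**
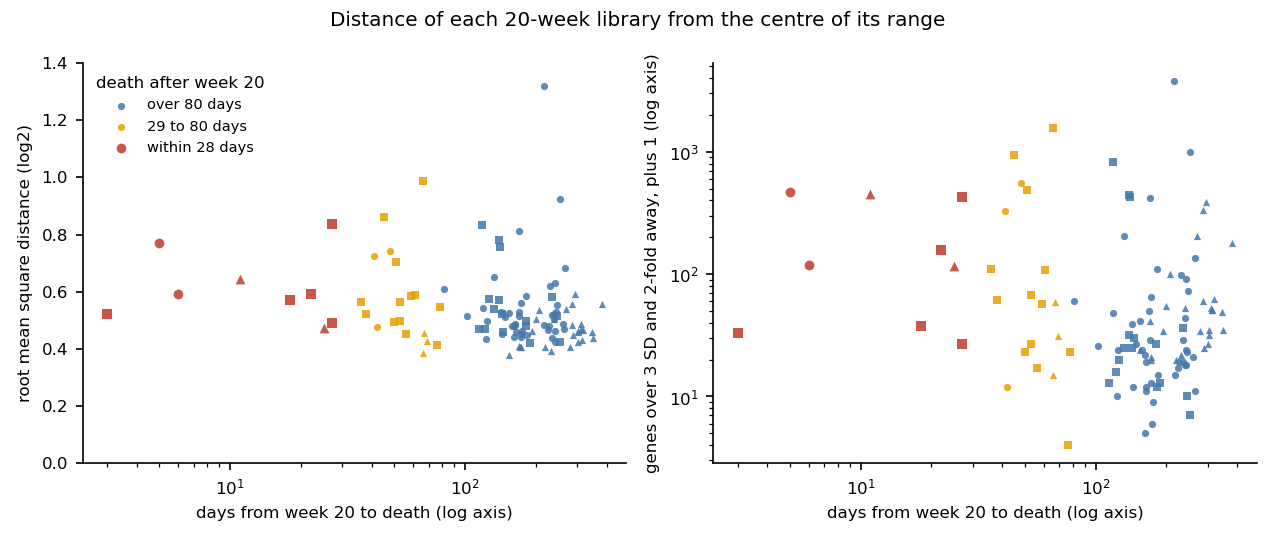
Root mean square log2 distance of each 20-week library from the centre of its range (left) and number of genes over 3 SD and 2-fold away plus 1 (right, log axis), against days from week 20 to death (log axis), with 1 symbol per range of fish number. The 9 fish near death lie between 0.475 and 0.838 in distance, inside the 0.387 to 0.986 of the fish that died after 29 to 80 days.

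The 10-week clips of the same fish were compared to ask whether they had differed earlier. Of 17382 genes, 0 (0%) passed in edgeR, with a lowest adjusted p of 0.289, and 1203 (6.92%) had an unadjusted p under 0.05, 751 higher (4.32%) and 452 lower (2.60%). DESeq2 called 3 genes (0.0173%), all lower, and took 1218 (7.01%) at an unadjusted p under 0.05. One was C1QTNF7, a secreted relative of adiponectin, with 0.0350 to 0.700 CPM near death (median 0.0739) and 0.159 to 2.15 (median 1.21) in the later deaths. Its edgeR adjusted p was 0.447.

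The list counts of this paragraph are of genes at an unadjusted p under 0.05, where 4.32% of all genes were higher and 2.60% lower. The cell cycle list stood out at 10 weeks, with 21 of 56 genes higher, 0 lower and a median log2 difference of 0.55. ASPM, a spindle pole protein, was at 0.93 ± 0.29 and TTK, a kinase of the spindle checkpoint, at 0.71 ± 0.25 (edgeR adjusted p = 0.643 and 0.689). Fish FC74 carried the counts: without it 0 of 56 passed the unadjusted p and the median was 0.28, and the interferon list went from 6 higher and 1 lower of 30 to 0 and 0. Ribosomal protein genes had 12 of 58 lower and 0 higher, with a median of -0.12, and 1 lower without fish FC74. Lysosome genes had 5 of 18 higher, and 2 without fish FC74.

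The change from 10 to 20 weeks within fish was compared directly, with samples paired by label. The pairs labelled FC104 and FC103 did not match, and the fit without these fish called 0 genes too. Of 17861 genes, 0 (0%) passed in edgeR with the fish as a block, the lowest adjusted p was 0.810, and 1053 (5.90%) had an unadjusted p under 0.05, 392 with a higher (2.19%) and 661 with a lower (3.70%) change near death. limma on the differences within fish called 0 genes as well. At an unadjusted p under 0.05 ribosome biogenesis had 12 of 52 genes with a higher change and 0 lower. Its median was 0.28, led by HEATR1 at 0.43 ± 0.14, while the median over all genes was -0.02. Cell cycle genes had 5 of 56 with a lower change at that p and a median of -0.48. Over 13 alternatives, the fit without the unmatched fish among them, the ribosome biogenesis median ran from 0.19 to 0.42. The cell cycle median ran from -0.62 to -0.38. FOS was at -2 ± 0.6, NR4A1 (Nfu_g_1_021198) at -1.65 ± 0.53 and FOSB at -1.82 ± 0.59, each with an edgeR adjusted p of 0.810. The higher change of ribosome biogenesis went with a lower level at 10 weeks. Against the later deaths, its median level ran from -0.27 to -0.13 over 13 alternatives at 10 weeks. At 20 weeks it ran from -0.02 to 0.16 over 24 alternatives.

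Against the 85 longer-lived fish, a comparison added after the results above were seen, the fish near death did differ at 20 weeks, but the number of genes rested on a few fish. In a fit of the 3 groups together 420 of 18163 genes passed (2.31%, with 15.6% at an unadjusted p under 0.05), 260 higher (1.43%) and 160 lower (0.881%). Without fish FC34 the fit called 23, without the library labelled fish FC104 it called 115, without fish FC74 240, without fish FC105 269, and without fish FC9 719. Without the fish of all 3 groups whose samples did not match, it called 108, 84 higher and 24 lower. The later deaths in the same fit differed from the longer-lived fish in 31 genes (0.171%), 30 higher and 1 lower. At an unadjusted p under 0.05 that comparison took 2021 genes (11.1%), 1432 higher and 589 lower, so that the later deaths departed from the longer-lived fish too. These comparisons share fish, so their counts are only set side by side, and the genes named below were chosen with their values seen. Below, rose and fell mean higher and lower near death than in the longer-lived fish at the same age, not a change within fish.

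**Figure D5:**
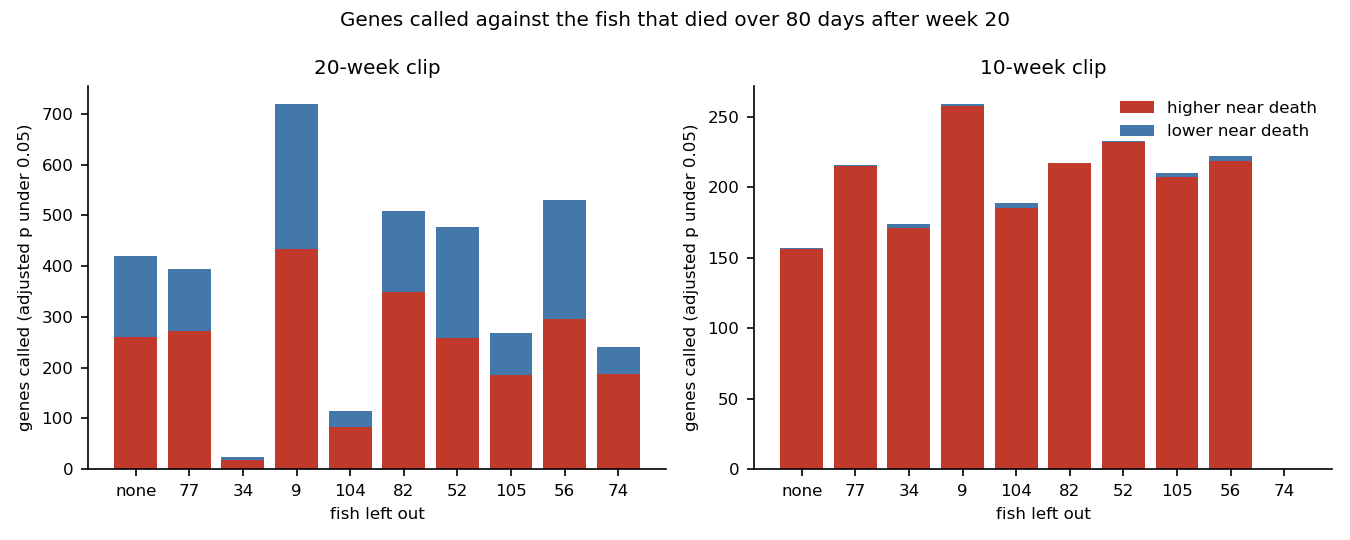
Number of genes called (edgeR adjusted p under 0.05) between the fish near death and the 85 longer-lived fish with all 9 fish and with each left out in turn, stacked as higher (red) and lower (blue) near death, at 20 weeks (left) and 10 weeks (right). At 20 weeks the count goes from 420 to 23 without fish FC34, and at 10 weeks from 157 to 0 without fish FC74.

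SCUBE1, a secreted and membrane-bound protein with EGF-like repeats, passed with every one of the 9 fish left out. It had 83.6, 170, 53.2, 230, 134, 174, 67.7, 54.3 and 67.6 CPM in fish FC77, FC34, FC9, FC104, FC82, FC52, FC105, FC56 and FC74, against 5.29 to 131 CPM (median 32.5) in the longer-lived fish. All 9 lay above that median and 7 above the median of the longer-lived fish of their own range, and 4 lay above the highest longer-lived value. It rose by a log2 difference of 1.41 ± 0.23 (edgeR adjusted p = 3.4e-05, at most 0.0147 with a fish left out), and the later deaths had a median of 56 CPM. At 10 weeks SCUBE1 was at 11.5 to 31.3 CPM near death and 4.66 to 60 in the longer-lived fish.

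C3 (Nfu_g_1_015843), a copy of the central complement component, also passed with each fish left out. It had 10.8 CPM in fish FC9 and 41.7 to 92.6 in the other 8, against 3.48 to 52.7 (median 16.2) in the longer-lived fish. Its log2 difference was 1.37 ± 0.25 (edgeR adjusted p = 0.00031, at most 0.0269 with a fish left out). The unnamed gene Nfu_g_1_006434 did the same, at 2.76 to 75.4 CPM against a median of 2.31, with a log2 difference of 2.55 ± 0.37. GHR, the growth hormone receptor, had 2.05 CPM in fish FC9 and 10.6 to 37.6 in the other 8, against a median of 3.93, and rose by 1.38 ± 0.22 (edgeR adjusted p = 1.3e-05). Its adjusted p was 0.0537 without fish FC34 and passed without each other fish. LPL, lipoprotein lipase, had 5.39 to 48.7 CPM against a median of 4.39 and rose by 1.27 ± 0.24, with an adjusted p of 0.169 without fish FC34.

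The medians over all longer-lived fish, here and in the paragraphs that follow, mix the ranges, and fish 51-84, which made up 5 of the 9 fish near death, made up 16 of the 85. The log2 differences above are from fits with the range as a covariate, and the levels within ranges are therefore given for GHR, SCUBE1 and C3. For LPL the longer-lived medians in fish 1-50, 51-84 and 85 and above were 3.78, 23.8 and 4.14 CPM, and all 9 fish near death lay above that of their range. For Nfu_g_1_006434 these medians were 2.74, 11.2 and 1.03 CPM, with 8 of the 9 fish above and fish FC56 below. GHR in the 5 fish near death of range 51-84 was at 25.9 to 37.6 CPM, against 10.2 to 48.2 (median 17.3) in the longer-lived fish of that range. In fish 85 and above GHR was at 10.6 and 16.2 CPM in the 2 fish near death, against 2.14 to 8.16 (median 3.9). In fish 1-50 it was at 2.05 and 26.2 CPM in the 2 fish near death, against 0.613 to 5.77 (median 3.01), so that one lay below the median of the longer-lived fish and one above their highest value. The groups thus overlapped in GHR in fish 51-84 and in fish 1-50, and did not in fish 85 and above. SCUBE1 in range 51-84 was at 54.3 to 174 CPM (median 83.6) against 25.3 to 131 (median 74.6), with medians close to each other. The groups lay further apart in the other ranges, with 67.7 and 230 CPM in fish 85 and above against a median of 27.3, and 53.2 and 170 CPM in fish 1-50 against 29.3. C3 (Nfu_g_1_015843) in range 51-84 was at 45.7 to 67.1 CPM against 7.62 to 52.7 (median 27.8), and in fish 85 and above at 55.3 and 92.6 CPM against 4.48 to 24.3. In fish 1-50 C3 was at 10.8 and 41.7 CPM against 3.48 to 49.8 (median 14.1), within the spread of the longer-lived fish. The later deaths in fish 1-50, 51-84 and 85 and above had GHR medians of 5.07, 23.8 and 3.05 CPM. Their medians in the same order were 14.2, 76 and 29.6 CPM for SCUBE1 and 28, 24.8 and 30 CPM for C3 (Nfu_g_1_015843). The highest later deaths in these ranges had 19.3, 60.3 and 5.11 CPM of GHR and 146, 98.5 and 34.1 of SCUBE1. For C3 they had 36.1, 179 and 62.5 CPM, so that some later deaths reached the levels seen near death. None of these genes passed in edgeR against the later deaths. The 2 fish near death were FC104 and FC105 in fish 85 and above, and FC9 and FC34 in fish 1-50. The samples labelled fish FC104 are those in doubt, and so are samples of some longer-lived fish of that range. The separation in fish 85 and above rests on these 2 fish near death.

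Of the genes of the glucocorticoid and fasting response 9 of 38 rose in this comparison and 0 fell, with a median of 0.51 against -0.002 over all genes, but 0 were called without fish FC34 and 3 without the library labelled fish FC104. Over all genes of this fit 1.43% were called higher and 0.881% lower, beside which the list counts of this paragraph stand. DDIT4 had 217 CPM in fish FC34, 90.4 in the library labelled fish FC104 and 21.4 to 71.6 in the other 7, against a median of 19. The later deaths had 9.62 to 135 CPM of DDIT4 (median 41.4), and its log2 difference from them was 0.49 ± 0.40, which did not pass. KLF9, a target of the glucocorticoid receptor, had 148 CPM in fish FC34 and 9.60 to 36.6 in the other 8, against a median of 3.42. Of the 9 fish, 8 lay above the longer-lived median of their own range for DDIT4 and 5 for KLF9. DDIT4 rose by 1.49 ± 0.27 and KLF9 by 2.40 ± 0.40 (edgeR adjusted p = 0.00020 and 4.1e-05), and without fish FC34 their adjusted p was 0.158 and 0.134. SIGLEC1, a macrophage receptor, had 80.8 CPM in fish FC34 and 8.03 to 20.2 in the other 8, against a median of 4.32, with 6 of the 9 above the median of their own range, and its adjusted p went from 0.0017 to 0.266 without fish FC34. Leukocyte markers had 3 of 23 called higher, plasma proteins 4 of 25 and the mixed list of immediate early and inflammatory genes 4 of 25. Without fish FC34 these counts were 0, 1 and 0, without the library labelled fish FC104 1, 2 and 2, and without fish FC74 1, 2 and 4.

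Other genes that passed against the longer-lived fish were MKNK2, CEBPB, a factor of the acute phase response, GADD45G, a stress-induced inhibitor of growth, and MCL1, a survival factor of the BCL2 family. MCL1 had 562 CPM in fish FC34 and 145 to 277 in the other 8, against a median of 124, and lay above the longer-lived median of their own range in 8 of the 9 fish. The exception was fish FC77, at 165 CPM where that median was 187. MCL1 rose by 0.73 ± 0.12 (edgeR adjusted p = 5.7e-05, and 0.119 without fish FC34). Its medians in fish 1-50, 51-84 and 85 and above were 354, 239 and 197 CPM near death. They were 231, 221 and 110 CPM in the later deaths and 124, 187 and 110 in the longer-lived fish. A further copy of C3, Nfu_g_1_007235, had 93.3 CPM in fish FC74, 30.1 in fish FC77 and 1.16 to 16.5 in the other 7, against a median of 2.42. Its adjusted p was 0.0086, and it was 0.119 without fish FC34 and 0.181 without fish FC74. Another copy of C3, Nfu_g_1_007065, was near the floor. Its medians in the 3 ranges were 0.33, 0.42 and 0.38 CPM near death and 0.31, 0.39 and 0.18 in the longer-lived fish.

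Genes of collagens and the matrix were among those that fell. COL5A2, a chain of the collagen that starts fibrils, had 67.1, 68.3, 517, 165, 77.1, 105, 294, 131 and 27.6 CPM in fish FC77, FC34, FC9, FC104, FC82, FC52, FC105, FC56 and FC74. The longer-lived medians of COL5A2 were 408 CPM in fish 1-50, 176 in fish 51-84 and 503 in fish 85 and above, and all fish near death but FC9 lay below that of their range. SPARC, a collagen-binding matrix protein, had 400 to 1660 CPM against medians of 1671, 695 and 1702 in the 3 ranges, with 7 of the 9 fish below. They fell by 0.97 and by 0.49 on the log2 scale (edgeR adjusted p = 0.0123 and 0.0312). Of 44 genes of the list 3 were called lower and 1 higher, beside 0.881% of all genes called lower and 1.43% called higher. The lower calls went to 0 without fish FC34, without fish FC74, without the library labelled fish FC104 and without the fish whose samples did not match, and the higher call was lost without fish FC34. The 1 called higher was FN1, fibronectin, with 203 CPM in fish FC74 and 314 to 947 in the other 8, against a median of 270. Among other genes that passed, SOX11, a factor of progenitor cells, fell by 0.67, CRABP2, which carries retinoic acid to the nucleus, by 0.67, and WNT11, a Wnt ligand, by 0.64 on the log2 scale. Their edgeR adjusted p-values of 0.0127, 0.0087 and 0.0309 were 0.158, 0.119 and 0.211 without fish FC34. The protease-like gene PRSS35 had 21.1 CPM in fish FC9 and 2.9 to 11 in the other 8, with fish FC9 and FC52 above and 7 fish below the longer-lived medians of their ranges. The later deaths were low in PRSS35 too: its medians over all ranges were 6.1 CPM near death, 8.89 in the later deaths and 18.2 in the longer-lived fish. Its log2 difference from the later deaths was -0.34 ± 0.32, which did not pass.

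Fish FC9, which had 6 days left, lay on the side of the longer-lived fish of its own range for some of these genes. It was below their median for GHR and the C3 copies Nfu_g_1_015843 and Nfu_g_1_007235 and above it for COL5A2 and PRSS35. For SCUBE1, LPL, SIGLEC1, DDIT4, SPARC and HES1 it lay on the same side of that median as most of the 9, and leaving it out gave the most calls. HES1, a target of Notch, lay below the median of its range in all 9 fish, and MARCKS in 8 of them. Their adjusted p-values of 0.0060 and 0.0097 were 0.102 and 0.119 without fish FC34, and that of MARCKS was 0.0835 without the library labelled fish FC104. MARCKS medians over all ranges were 7.81 CPM near death, 12.3 in the later deaths and 20.9 in the longer-lived fish. Its log2 difference from the later deaths was -0.51 ± 0.24, which did not pass.

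Copies of HBG1, a haemoglobin chain, were called in the same fit through 1 fish. Nfu_g_1_007507 had 27.9 CPM in fish FC34 and at most 1.76 in the other 8, and Nfu_g_1_007603 had 26.3 and at most 2.37. Without fish FC34 their adjusted p was 0.999 and 0.121. Another copy of HBG1, Nfu_g_1_007641, was more abundant and was not called. Its medians were 25.7 CPM near death, 14.5 in the later deaths and 34.6 in the longer-lived fish. The proteasome list had 0 of 26 genes at an unadjusted p under 0.05 and a median of -0.08.

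At 10 weeks the fit against the longer-lived fish called 157 of 18160 genes (0.865%, with 7.93% at an unadjusted p under 0.05), 156 higher (0.859%) and 1 lower (0.00551%). It called 0 without fish FC74, where 2.42% of genes had an unadjusted p under 0.05. CDO1, an enzyme that breaks down cysteine, had 1270 CPM at that age in the highest of the 9 fish, with a median of 15.6. In the 20-week libraries CDO1 had 367 CPM in fish FC74 and 7.65 to 52.8 in the other 8.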

How the data were processed

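Fin clips of 114 fish were sequenced at 2 ages. Libraries came from an unstranded kit (TruSeq RNA v2), so that overlapping genes and near-identical copies can share reads. The deposited table, made by the authors with TopHat2 2.1.0 and featureCounts 1.5.0 after bcl2fastq 1.8.4 according to the processing notes, holds raw counts of reads for each gene. Genome build and annotation: not given in the sources used here. All 228 columns matched 1 sample each by the labels. Groups came from the age at death. The members and lists were chosen with earlier results of these data known.

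Counts were scaled by TMM, filtered by filterByExpr and tested with edgeR 4.0.16 (quasi-likelihood, 2-sided, Benjamini-Hochberg over all genes tested) in R 4.3.3. limma 3.58.1 and DESeq2 1.42.0 were alternatives, with other scalings, filters, covariates and samples. CPM are counts per library scaled by TMM. The fit of change used the fish as a block, since the labels name the animal. A library's distance was the root mean square log2 difference from the mean of the other libraries of its range, those of fish near death left out. The scripts were tested on simulated data. Separate fish are the replicates, and the number of counts behind a CPM limits its precision.

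The rule for named genes took genes with a name, an adjusted p under 0.05, a mean of at least 5 CPM and 1 sign in the 3 ranges, in order of fold change. As 0 genes passed, 5 of each direction by the lowest p were filled in, named or not. List members given are those with the lowest p. Names came from the human orthologue names in the study's supplementary tables, used for names only and incomplete, so that list counts cover the named copies. No sequence is printed.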

Additional observations from a re-analysis of the deposited data

Results flagged for a closer look

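A check of 57 values over the 9 fish near death found 8 in which 1 fish lay apart from the other 8, by the gap to its neighbour as a share of the whole range (Dixon's 95% limit). Chance alone marks about 1 in 20 such values. At 20 weeks fish FC74 was above the rest for the cell cycle list, with a gap of 0.580 of the range, and for the interferon and antigen presentation list, with 0.594. At 10 weeks the same fish was above the rest for interferon and antigen presentation (0.633), leukocyte markers (0.727) and lysosome genes (0.542), and below them for ribosomal proteins (0.645) and collagens and extracellular matrix (0.615). Its leukocyte list was 1.3 above its range at 10 weeks, and the next fish was at 0.23. These values belong to 1 animal, and the part of cell composition in them was not tested. Fish FC34 was below the rest for Nfu_g_1_005004 at 20 weeks (0.535), with 84.9 CPM where the other 8 had 102 to 121.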

How the results depend on the processing

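Of 25 alternatives to the first comparison, 22 called 0 genes, as the edgeR test did. DESeq2 called 1 gene, Nfu_g_1_009401. A fit of all 20-week libraries in 3 groups called 4, of which 2 were copies of HBG1 that are high in fish FC34 and another was Nfu_g_1_009401. Taking all fish that died later as the comparison, chosen after seeing the data, called 210, with Nfu_g_1_009401 among them. At 10 weeks 12 of 13 alternatives called 0 and DESeq2 called 3. For the change all 13 called 0: without the replicate block, that is without pairing the samples of a fish, 0 genes were called and 659 (3.69%) had an unadjusted p under 0.05. Leaving out each fish near death gave 0 calls in each of these 3 comparisons. Against the longer-lived fish, a comparison and alternatives chosen after seeing the data, DESeq2 size factors gave 415 genes in place of 420, leaving out the unmatched fish gave 108, and leaving out 1 fish gave 23 to 719, while at 10 weeks it gave 0 to 259. Of 55 genes followed through these alternatives 3 were called in all of them, and of 605 gene and setting pairs 426 were called, 179 were not and 0 changed sign. These genes were chosen because the fit with all fish called them, and most settings left out only 1 fish. Kept signs and calls are therefore no separate support. The number of fish near death, 9, limits the precision of each comparison.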
